A study of Mus musculus with 3 samples.

Results

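The genes described here are the myogenic regulators and fusion genes of mouse skeletal muscle, 9 in number: Pax7, Pax3, Myf5, Myod1, Myog, Myf6, Mef2c, Mymk and Mymx. They were found by their symbols among the 32285 features of the count matrices, of which 25566 had at least 1 UMI (unique molecular identifier, which stands for 1 captured transcript), and all 9 members were detected. The data were single-cell RNA sequencing of tibialis anterior (TA) muscle taken 4 days after injury by intramuscular barium chloride (BaCl2), a salt that kills muscle fibres and is followed by regeneration. C57/BL6J mice made up 3 groups, each a single library of cells pooled from several animals: young PBS (3 to 4 months old, injected with phosphate-buffered saline), old PBS (24 to 26 months, saline) and old rMETRNL (24 to 26 months, injected with recombinant Meteorin-like, a secreted protein made by macrophages and other cells). With 1 library per group the animals cannot be told apart, so differences between libraries have no replicate check and no test was made. Intervals given below are 95% intervals for counting error only, and they are too narrow where many UMIs come from few cells.

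Regeneration of muscle fibres depends on muscle stem cells (MuSC, or satellite cells), which carry the paired-box factor Pax7 and, in some muscles, its relative Pax3. After injury these cells enter the cell cycle as myoblasts and express the basic helix-loop-helix (bHLH) factors Myf5 and Myod1, which commit them to the muscle lineage. Myog then starts terminal differentiation, with Mef2c as its partner at muscle promoters, and the differentiating cells, or myocytes, use the membrane proteins Mymk (Myomaker) and Mymx (Myomixer) to fuse into fibres. Myf6 (MRF4) is the bHLH factor most associated with the finished fibre.

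Promoter sequence was available for 4 of the 9 members. The 250 bases before the RefSeq start site (GRCm38.p6) are shown for Myog, whose level separated myocyte-like cells from the rest of the lineage, and for Myf5 and Pax7, which were highest in stem and myoblast-like cells. They are written 5′ to 3′ on the strand of the gene, and capitals mark E-boxes (CANNTG, the letters that bHLH factors bind) and the MEF2 site (a C or T, then TA, then 4 bases of A or T, then TA), searched on both strands.
Myog, chr1:134289754-134290003, plus strand: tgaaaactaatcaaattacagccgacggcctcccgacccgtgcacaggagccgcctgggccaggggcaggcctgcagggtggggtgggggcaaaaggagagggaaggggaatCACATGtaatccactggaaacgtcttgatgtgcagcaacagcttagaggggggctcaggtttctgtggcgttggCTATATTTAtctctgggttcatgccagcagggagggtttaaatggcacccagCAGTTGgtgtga
Myf5, chr10:107486135-107486384, minus strand: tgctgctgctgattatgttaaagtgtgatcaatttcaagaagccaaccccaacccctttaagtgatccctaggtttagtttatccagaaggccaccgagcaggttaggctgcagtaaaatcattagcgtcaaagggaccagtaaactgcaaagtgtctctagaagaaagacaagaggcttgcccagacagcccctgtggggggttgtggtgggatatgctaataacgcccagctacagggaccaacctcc
Pax7, chr4:139832969-139833218, minus strand: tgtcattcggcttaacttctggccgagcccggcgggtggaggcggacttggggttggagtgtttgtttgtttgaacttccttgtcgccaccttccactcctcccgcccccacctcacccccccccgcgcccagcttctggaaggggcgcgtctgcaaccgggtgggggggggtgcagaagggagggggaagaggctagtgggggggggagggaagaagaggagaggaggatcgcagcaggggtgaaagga
The Myog sequence held 2 E-boxes, CACATG from -138 to -133 and CAGTTG from -12 to -7 relative to the start site, and a MEF2 site from -64 to -56 that did not overlap them. The Myf5 and Pax7 sequences held no match to any motif in this window. Of 32851 RefSeq promoters of the same length, 66.2% held a CANNTG E-box, 13.0% held the CAGCTG form and 7.07% held a MEF2 site. Mef2c has 3 promoter entries, which held 2, 0 and 1 E-boxes and 1, 0 and 0 MEF2 sites, and none of the members' entries held CAGCTG. Pax3, Myod1, Myf6, Mymk and Mymx had no entry.

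The members lie on 7 chromosomes of GRCm38 (GENCODE M21), and all are protein-coding. Myf5 (chr10:107482908-107486134) and Myf6 (chr10:107492853-107494737) are neighbours on the minus strand, 6718 bases apart. Myog (chr1:134289989-134292548, plus strand) and Pax3 (chr1:78101267-78197134, minus strand) share a chromosome at a distance. The others are Pax7 (chr4:139737062-139833528), Myod1 (chr7:46376474-46379099), Mef2c (chr13:83504034-83667080), Mymk (chr2:27061636-27072179) and Mymx (chr17:45600971-45602102).

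The libraries held 12168 (young PBS), 12568 (old PBS) and 14012 (old rMETRNL) barcodes with between 179295668 and 228966697 UMIs, and 10293, 9946 and 11353 cells were kept. Between 58 and 80 barcodes occurred in both libraries of a pair. Classes were named from marker lists without the members, and each name ends in "-like". MuSC/myoblast-like cells numbered 365, 175 and 366 in that order, which was 3.55%, 1.76% and 3.22% of kept cells. Myocyte-like cells numbered 87, 22 and 46. Mature fibre-like droplets, with median depths between 2079 and 3012.5 UMIs, numbered 34, 426 and 128, so the old PBS library held the most fibre RNA and the fewest MuSC/myoblast-like cells. In MuSC/myoblast-like cells 11 of 12 class markers were each found in at least 10% of the cells of every library, and in myocyte-like cells 12 of 12 were. The MuSC/myoblast name went to muscle sub-clusters that met neither the fibre nor the myocyte rule. Its 12 markers summed to 2744, 2830 and 2581 per 1000000 UMIs of that class. They were higher in myocyte-like cells (3761, 4080 and 3990) and in fibre-like droplets (4409, 5138 and 4744), so their sum does not set the class apart. Myocyte-like, mature fibre-like, B-like and Schwann/glial-like classes held fewer than 50 cells in at least 1 library, as did some sub-clusters described below, and their values rest on few cells.

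Of the 9 members, 7 were found mainly in the mononuclear muscle lineage, meaning MuSC/myoblast-like and myocyte-like cells together. That lineage held 92.4% of the kept UMIs of Pax7, 87.7% of Pax3, 89.9% of Myf5, 87.3% of Myod1, 86.5% of Myog, 88.1% of Mymk and 84.2% of Mymx, although it was 4.39%, 1.98% and 3.63% of kept cells. For Pax3, Myod1, Myog, Mymk and Mymx the share was lowest in old PBS, where it ran from 70.3% to 77.3%, against 82.9% to 92.0% in the other libraries. The old PBS share of Pax3 rests on 22 UMIs. Myf5 was lowest in old PBS too, at 85.7% against 89.8% and 91.7%. An unnamed sub-cluster of muscle cells, described at the end, held 535 of 4055 kept Myog UMIs in old PBS. In young PBS it held 498 of 13353 and in old rMETRNL 427 of 6234. The remaining pair were placed differently. Myf6 had 83.3% and 74.3% of its kept UMIs in mature fibre-like droplets in old PBS and old rMETRNL. In young PBS, with 62 kept Myf6 UMIs, 22.6% lay there and 59.7% in the mononuclear lineage. Mef2c, which endothelial, B and myeloid cells also use, had 68.4% of its UMIs in macrophage/monocyte-like cells and 2.28% in the mononuclear muscle lineage.

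**Figure D1:**
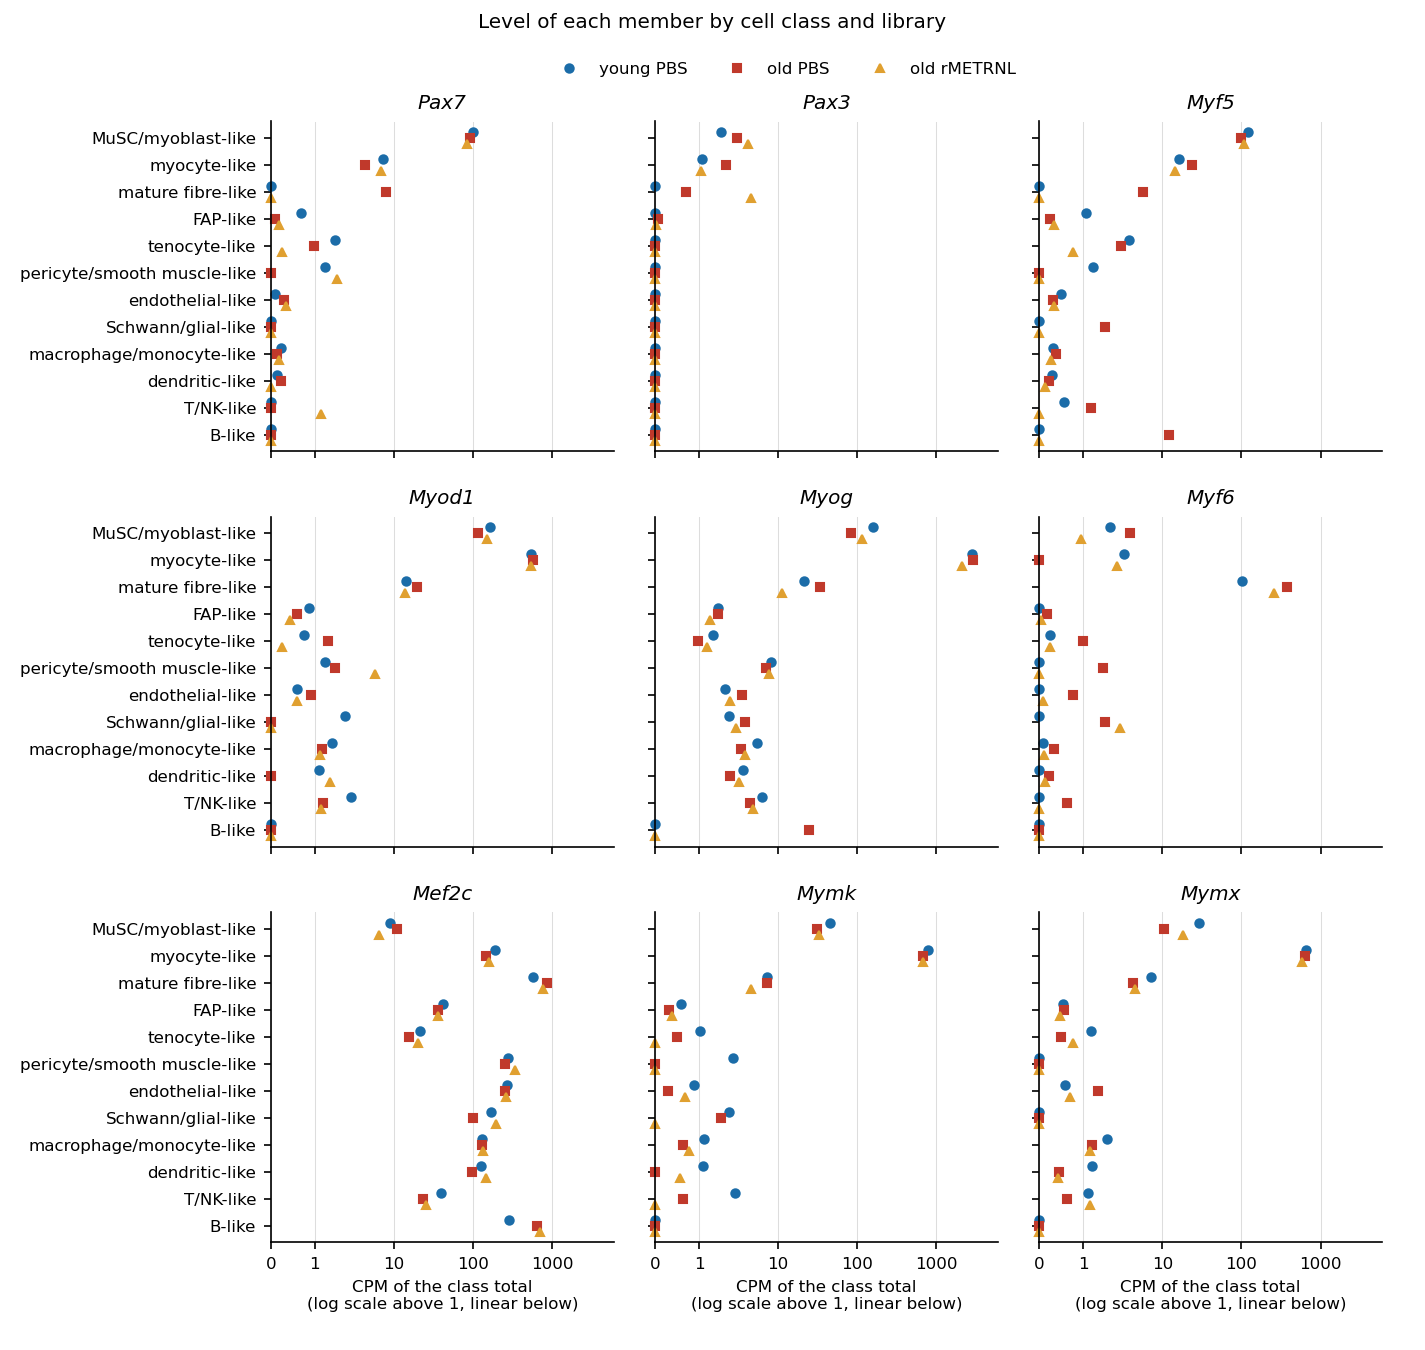
Level of each member as CPM (UMIs scaled to a class total of 1000000, log scale above 1 and linear below) by cell class, with 1 point per library (young PBS, old PBS, old rMETRNL). Pax7 and Myf5 peaked in MuSC/myoblast-like cells, Myod1, Myog, Mymk and Mymx in myocyte-like cells, and Myf6 in mature fibre-like droplets. Mef2c had its highest median over libraries in those droplets, with a range that overlapped that of B-like cells.

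Pax7, the transcription factor that defines the stem cell pool, stood at 100.6, 90.8 and 84.4 CPM (UMIs scaled to a class total of 1000000) in MuSC/myoblast-like cells of the young PBS, old PBS and old rMETRNL libraries, the order used for every set of 3 values below. In myocyte-like cells it was at 7.36, 4.37 and 6.92 CPM. The ranges of these classes did not overlap, and no other class exceeded 1.94 CPM outside the fibre-like droplets, where old PBS had 7.88 CPM from 11 UMIs and the other libraries had 0. Pax3, a close relative of Pax7, was sparse, with 93 UMIs in the mononuclear lineage over all 3 libraries. Its level in MuSC/myoblast-like cells was 1.90, 3.06 and 4.12 CPM. Its ranges in MuSC/myoblast-like, myocyte-like and fibre-like classes overlapped.

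Myf5, which marks activated stem cells and myoblasts, followed Pax7 across classes. It was at 121, 98.4 and 107 CPM in MuSC/myoblast-like cells and at 16.4, 24 and 14.4 CPM in myocyte-like cells. Tenocyte-like cells came next by median, at 2.97 CPM, and no class outside these reached the myocyte-like range.

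Myod1, the factor that commits cells to muscle, was highest in myocyte-like cells at 547, 580 and 545 CPM and next in MuSC/myoblast-like cells at 165, 116 and 150.4 CPM. Old PBS was the lowest library in the latter class and the highest in the former. Of the Myod1 UMIs of the mononuclear lineage, myocyte-like cells held 51.2% (49.6 to 52.8), 48.2% (45.2 to 51.2) and 36.9% (35.1 to 38.7), so this transcript was split between the classes rather than concentrated in either.

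Myog, the switch to differentiation, was at 2817, 2871 and 2076 CPM in myocyte-like cells and at 159, 82.2 and 116 CPM in MuSC/myoblast-like cells. The young and old PBS values in myocyte-like cells lay close together, with the old rMETRNL value below both. Mature fibre-like droplets were at 21.4, 33.7 and 11.3 CPM. Of the Myog UMIs of the lineage, 84.9% (84.3 to 85.6), 86.7% (85.4 to 87.9) and 74.3% (73.1 to 75.5) were in myocyte-like cells, the smallest share being that of old rMETRNL.

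The fusion genes had the same order of classes. Mymk, the membrane protein needed on both fusing cells, was at 791, 685 and 676 CPM in myocyte-like cells and at 45.7, 31.0 and 32.6 CPM in MuSC/myoblast-like cells. Mymx, the micropeptide that acts with it, was at 661, 633 and 589 CPM in myocyte-like cells and at 28.7, 10.6 and 18.4 CPM in MuSC/myoblast-like cells. For both genes the 3 libraries stayed within a narrow range in myocyte-like cells and differed more in MuSC/myoblast-like cells, where young PBS was highest.

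Myf6 and Mef2c were the members with their highest median over libraries in mature fibre-like droplets. Myf6 was at 100.03, 370.5 and 256 CPM in mature fibre-like droplets, from 14, 517 and 113 UMIs, and at no more than 3.88 CPM in either mononuclear class. In myocyte-like cells Myf6 was at 3.27 and 2.66 CPM in young PBS and old rMETRNL, and old PBS had 0 UMIs, where the floor of 3 counts would be 3.28 CPM. Mef2c was at 572, 866 and 756 CPM in fibre-like droplets, at 192, 145 and 159 CPM in myocyte-like cells and at 9.0, 10.8 and 6.53 CPM in MuSC/myoblast-like cells. Outside the lineage, B-like cells ran from 282 to 699 CPM, overlapping the fibre-like range. Pericyte/smooth muscle-like cells ran from 250 to 343 CPM and endothelial-like cells from 256 to 270 CPM. Within the mononuclear lineage Mef2c thus followed Myog and the fusion genes, with 87.1%, 71.5% and 79.7% of its UMIs in myocyte-like cells. In fibre-like droplets Myf6 was 3.70-fold (2.19 to 6.82) higher in old PBS than in young PBS, where only 34 droplets were available, and 1 droplet held 207 of the 1209 old PBS UMIs of Mef2c. Erythroid markers in these droplets summed to 42.9, 5916 and 102 CPM, so old PBS stood apart there too, and their part in this ratio was not tested.

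The age comparison, old PBS over young PBS, asked how the regulators stood in aged regenerating muscle. In MuSC/myoblast-like cells Myog and Mymx were lower in old PBS, while Pax7 was within counting error of young PBS. Of the 7 members with at least 50 UMIs over both libraries, 0 were higher and 2 were lower past 1.5-fold with an interval leaving out 1. Over all 10471 genes tested in the same way, 4.27% were higher and 2.88% were lower. Myog went from 159 to 82.2 CPM, a ratio of 0.518 (0.464 to 0.577), and Mymx from 28.7 to 10.6 CPM, a ratio of 0.369 (0.270 to 0.496). The same direction was seen short of the fold for Myod1 at 0.703 (0.639 to 0.772), Mymk at 0.679 (0.563 to 0.815) and Myf5 at 0.815 (0.733 to 0.904). Over the 9 other settings that could move a ratio, Myod1 ran from 0.697 to 0.849 and Mymk from 0.391 to 0.887. Myf5 ran from 0.774 to 1.33, so its direction was not held in all of them. Pax7 was at 0.902 (0.807 to 1.01) and Mef2c at 1.2 (0.846 to 1.69), both with intervals that include 1. In the other settings Mef2c ran from 0.487 to 1.31, and 24 of its 53 old PBS UMIs came from 1 cell. Pax3 and Myf6 had too few UMIs for a ratio. The Myog ratio was 0.821 when more barcodes were let through the filters and 0.944 as a mean of per-cell CPM, both short of the fold, whereas the Mymx ratio stayed below 0.67 in the 9 other settings that could move it. The filters removed 13.4% of all Mymx UMIs in young PBS and 5.78% in old PBS, and the Mymx ratio was 0.387 with doublets kept and 0.456 with the looser filter. Macrophage/monocyte-like cells, used below as background, had age ratios of 0.635 (0.552 to 0.729) for Myog and 0.636 (0.505 to 0.799) for Mymx. There Mymk was at 0.537 (0.388 to 0.738) and Myod1 at 0.757 (0.594 to 0.962), while the Myf5 and Mef2c intervals included 1. The part of this background in the ratios of the muscle class was not tested.

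The treatment comparison, old rMETRNL over old PBS, used the same old PBS library, so its ratios are not independent of those for age. Here Mymx was higher and Mef2c lower in old rMETRNL, and Myog and Myod1 were higher short of the fold. Of 8 members tested in MuSC/myoblast-like cells, 1 was higher and 1 was lower past the fold, beside 2.24% higher and 4.02% lower of 10439 genes. Mymx went from 10.6 to 18.4 CPM, a ratio of 1.73 (1.27 to 2.39). Myog went from 82.2 to 116 CPM at 1.41 (1.26 to 1.58), and Myod1 from 116 to 150.4 CPM at 1.29 (1.18 to 1.42). As a mean of per-cell CPM the Myog ratio was 1.05. It also differed between the sub-clusters of this class described below, from 0.824 to 2.74. Pax7 at 0.930 (0.830 to 1.04), Myf5 at 1.09 (0.983 to 1.22) and Mymk at 1.05 (0.867 to 1.28) had intervals that include 1. In old rMETRNL both Myog and Mymx lay between the old PBS and the young PBS level. The Mef2c ratio of 0.603 (0.419 to 0.874) rested on 53 UMIs in old PBS, of which 24 came from 1 cell, and it was above 1 in 3 other settings.

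In myocyte-like cells 0 of 6 members were higher and 0 lower with age, beside 2.96% and 3.71% of 6926 genes. Myod1 was at a ratio of 1.06 (0.963 to 1.17), Myog at 1.02 (0.976 to 1.06) and Mymx at 0.957 (0.873 to 1.05), so these levels did not differ beyond counting error once cells were in this class. Mymk at 0.866 (0.793 to 0.945) and Mef2c at 0.757 (0.624 to 0.913) were lower short of the fold. With treatment 0 of 5 members were higher and 0 lower, beside 4.55% and 2.83% of 5516 genes. Myog was at 0.723 (0.688 to 0.760), from 2871 to 2076 CPM, which was opposite in direction to its ratio in MuSC/myoblast-like cells. The 10 macrophage markers in these myocyte-like cells summed to 107, 108 and 204 CPM, 1.89-fold (1.51 to 2.38) higher with treatment, and their part in the Myog ratio was not tested. Mymk at 0.986 (0.895 to 1.09) and Mymx at 0.932 (0.842 to 1.03) had intervals that include 1. The old PBS values of this class rest on 22 cells.

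**Figure D2:**
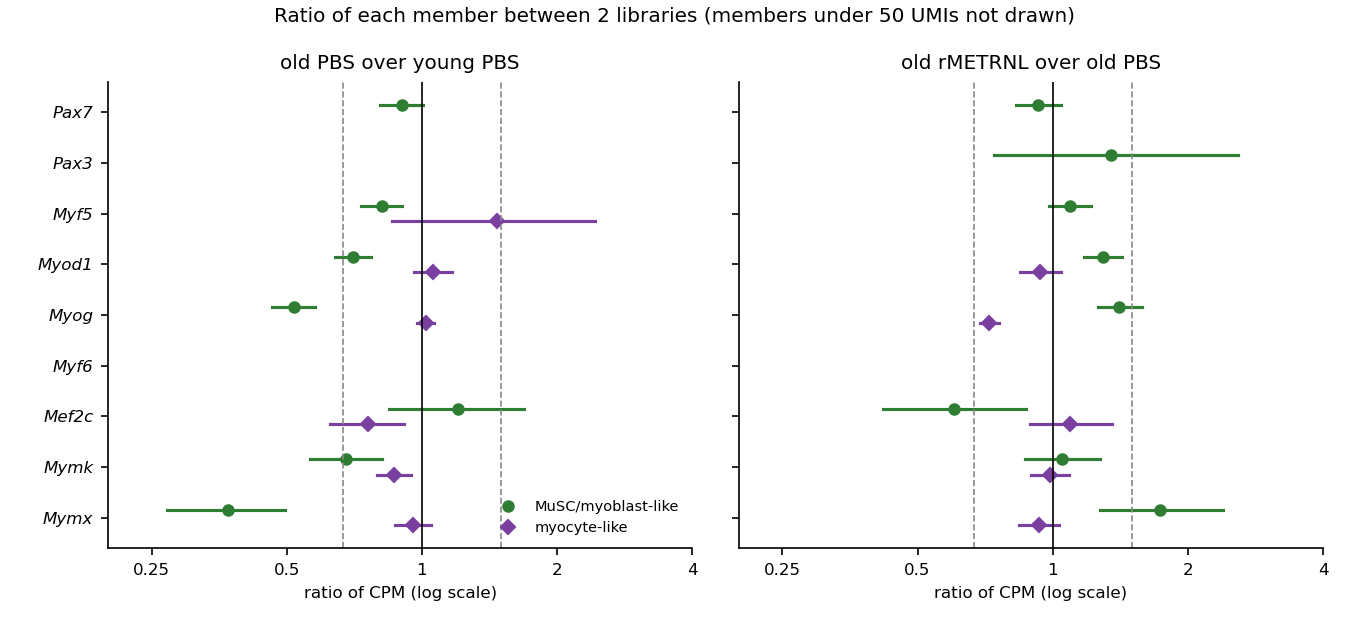
Ratio of CPM between libraries (log scale) for the members with at least 50 UMIs, with age (old PBS over young PBS) and treatment (old rMETRNL over old PBS) in MuSC/myoblast-like and myocyte-like cells. Bars are 95% counting intervals and dashed lines mark 1.5-fold either way; Mymx lies beyond them in both comparisons of MuSC/myoblast-like cells, Myog in that for age and Mef2c in that for treatment.

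RNA of mature fibres and other marker lists moved with the same libraries. The 12 fibre markers summed to 827, 1228 and 817 CPM in MuSC/myoblast-like cells, highest in old PBS, and Mybpc2 was at 0 in young PBS. Of the fibre markers tested, 7 of 9 were higher with age and 8 of 10 lower with treatment. The 12 myocyte markers, genes of the contractile apparatus in the main, summed to 1480.4, 2020 and 1444 CPM. Of them 5 were higher and 1 lower with age, and 0 were higher and 6 lower with treatment, so their sum stood in the opposite direction to Myog and Mymx, with ratios of 1.36 and 0.715. The 10 FAP (fibro/adipogenic progenitor) markers also had their highest sum in old PBS, at 667, 832 and 499.8 CPM. The 10 macrophage markers summed to between 126.5 and 149.5 CPM and the 5 erythroid markers to 8.14, 11.0 and 9.53 CPM. For the 8 endothelial markers the sums were 10.1, 20.8 and 12.5 CPM, again highest in old PBS. The part of this RNA in the member ratios was not tested.

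How many myocyte-like cells a library held was a separate quantity from the CPM inside them. The myocyte-like share of the mononuclear lineage was 19.2% (15.7 to 23.2), 11.2% (7.13 to 16.4) and 11.2% (8.29 to 14.6) in the order above. Young PBS was therefore the library with the largest share of its muscle cells in the class where Myog, Mymk and Mymx were concentrated.

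When the muscle cells were clustered again without the members, MuSC/myoblast-like cells fell into 3 sub-clusters with different member levels. A sub-cluster led by Itih5 and Chodl, with 167, 93 and 152 cells, carried the most Pax7 and Myf5. There Pax7 was at 203, 145 and 187 CPM and Myf5 at 250.3, 177 and 269 CPM. Both were lowest in old PBS, with age ratios of 0.714 (0.621 to 0.818) for Pax7 and 0.709 (0.626 to 0.802) for Myf5. The treatment ratios were 1.29 (1.12 to 1.49) for Pax7 and 1.52 (1.34 to 1.72) for Myf5, so the near-equal Pax7 level of the whole class was not seen within its Pax7-rich part.

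A sub-cluster led by Lefty1, Wnt7b and the mitotic genes Cdc20 and Cenpa (116, 39 and 110 cells) carried the most Myod1 and Myog of these 3 sub-clusters. Its Myod1 was at 234, 175 and 221 CPM and its Myog at 227, 179 and 214 CPM. Old PBS was lowest for both, with age ratios of 0.747 (0.643 to 0.864) and 0.788 (0.680 to 0.911).

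A sub-cluster led by replication-dependent histone genes, which cells express while copying DNA (82, 43 and 104 cells), showed the widest spread of Myog. Its Myog level was 163, 21.5 and 58.8 CPM, so old PBS was lowest and young PBS highest. Mymx was at 22.2, 2.45 and 7.27 CPM, from 72, 4 and 32 UMIs. The age ratios were 0.132 (0.0908 to 0.186) for Myog and 0.111 (0.0293 to 0.296) for Mymx, and the treatment ratio of Myog was 2.74 (1.92 to 4.02), Mymx having too few UMIs for one. The old PBS side of these ratios was 43 cells, with the 35 Myog UMIs in 7 of them and the 4 Mymx UMIs in 2. As a share of cells with a UMI, unthinned, Myog was at 34.1%, 16.3% and 24.04%, a smaller difference than that of the CPM. In the sub-cluster led by Itih5 and Chodl, by contrast, Myog was at 71.1, 70.8 and 58.3 CPM, and the ratio for age was 0.996 (0.806 to 1.23). Its ratio for treatment in that sub-cluster was 0.824 (0.656 to 1.04). Mymk there stood at 19.6, 30.4 and 11.9 CPM, which gave 1.55 (1.08 to 2.20) for age and 0.390 (0.25 to 0.601) for treatment, in the opposite direction for age to the class as a whole, and its 61 old PBS UMIs came from 9 cells. Among these sub-clusters the Myog ratio thus ran from 0.132 to 0.996 for age and from 0.824 to 2.74 for treatment. Myod1 in the histone-led cells was at 184, 149 and 148 CPM, with a treatment ratio of 0.999 (0.860 to 1.16).

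**Figure D3:**
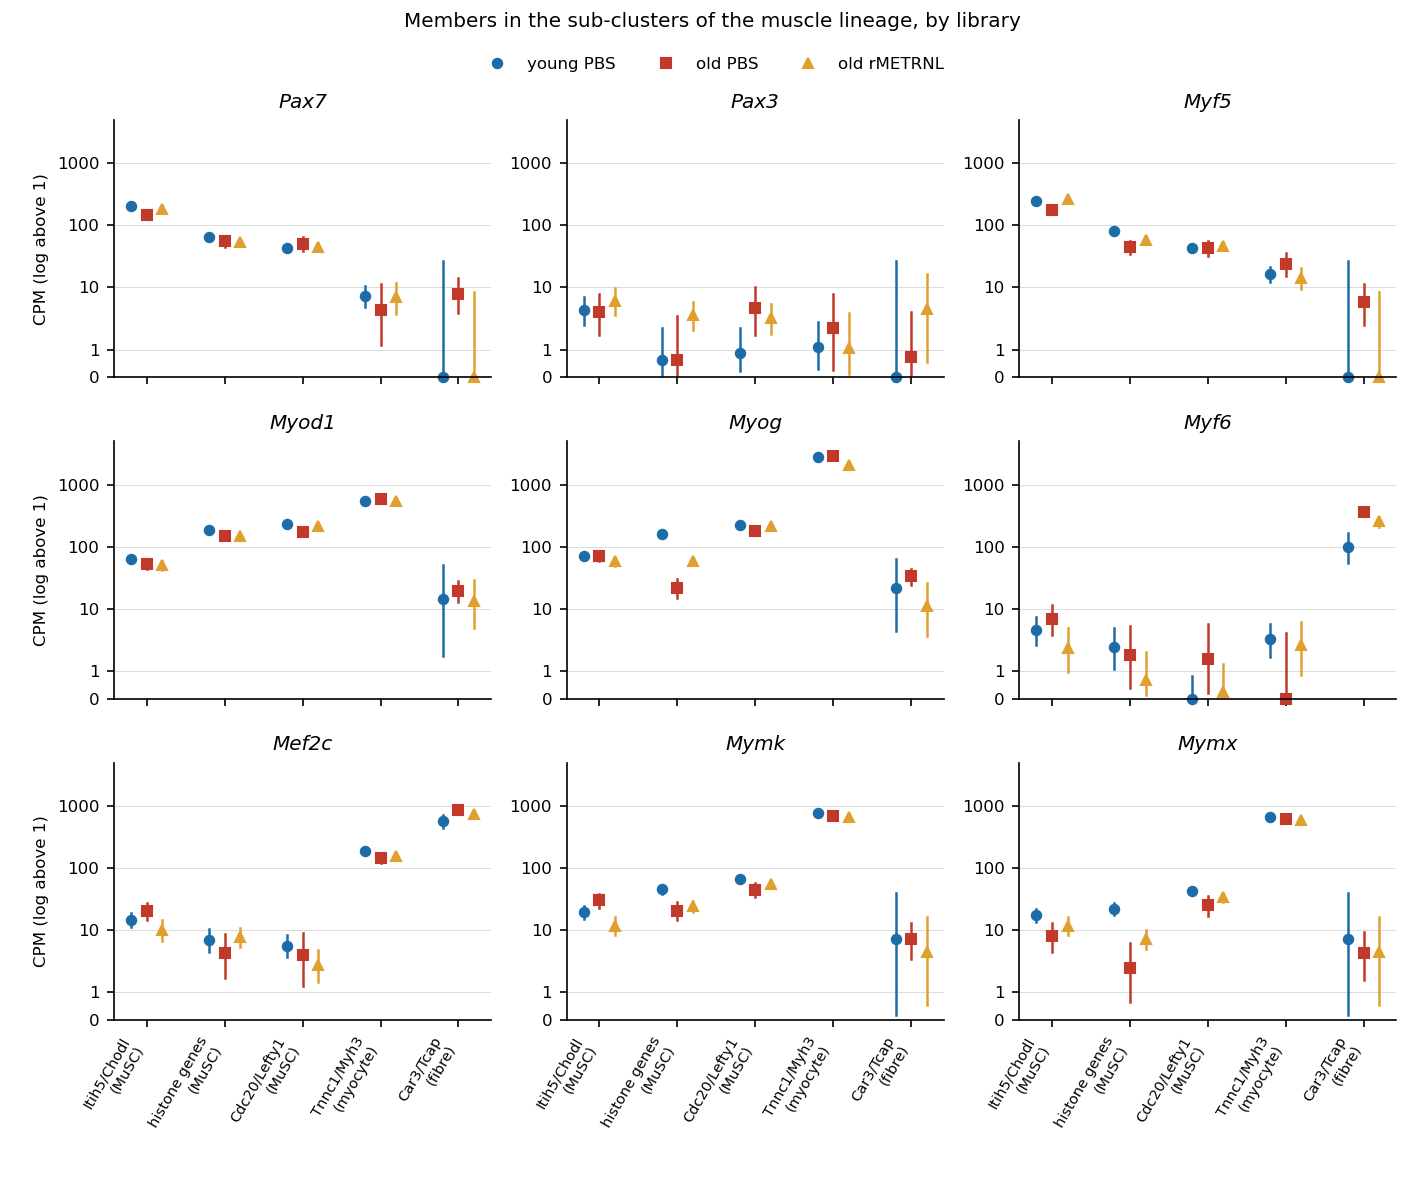
Member levels (CPM, log scale above 1 and linear below) in the sub-clusters of the muscle lineage, 1 point per library with its 95% Poisson interval. Pax7 and Myf5 are highest in the sub-cluster led by Itih5 and Chodl, and Myog in the histone-led cells runs from 21.5 CPM in old PBS to 163 in young PBS.

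The UMIs of the differentiation genes were held by few MuSC/myoblast-like cells. The highest 10% of cells (37, 18 and 37 cells) held 36.9%, 35.7% and 35.6% of the Pax7 UMIs. It held 71.7%, 73.0% and 60.9% of the Myod1 UMIs. For Myog the share was 89.2%, 89.1% and 90.0%, so this concentration did not separate the libraries. Mymx in old PBS consisted of 52 UMIs in 19 cells, too few for this share to be set beside those of the other libraries, where 72 and 62 cells held a Mymx UMI.

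**Figure D4:**
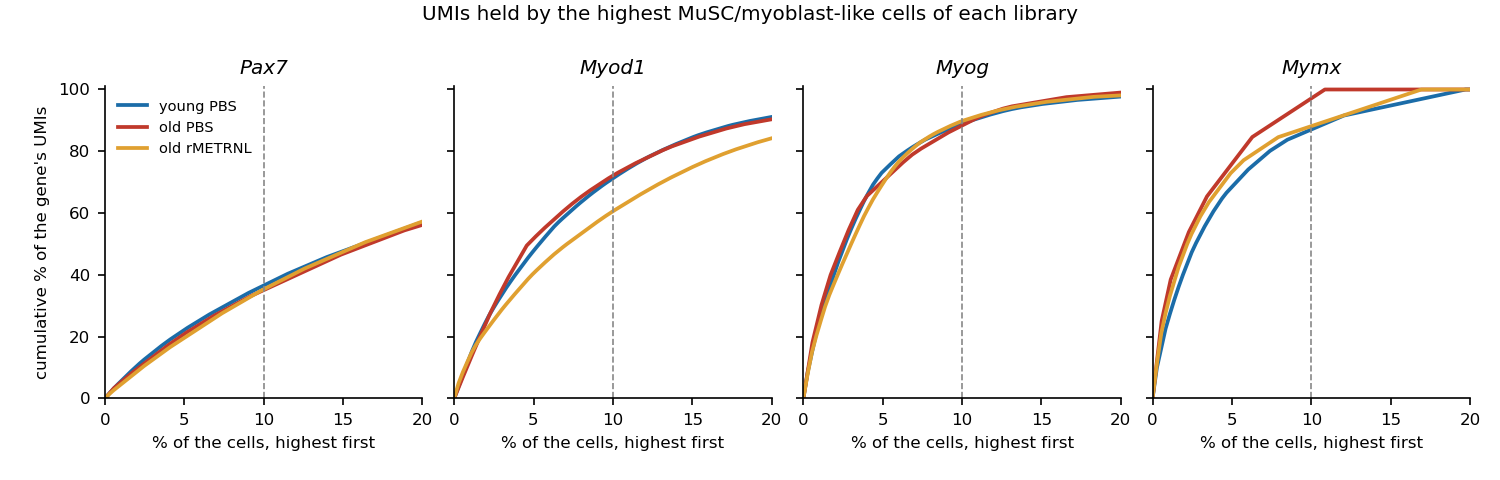
Cumulative share of the UMIs of Pax7, Myod1, Myog and Mymx (y, percent) held by the highest MuSC/myoblast-like cells (x, percent of the cells, highest first), 1 line per library. The dashed line marks 10% of cells, which held between 35.6% and 36.9% of Pax7 and between 89.1% and 90.0% of Myog.

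Detection per cell was read after thinning each cell to 2000 UMIs, which left 344, 166 and 346 MuSC/myoblast-like cells and left out 21, 9 and 20 shallower ones. Pax7 was found in 23.5% (19.2 to 28.4), 15.1% (9.99 to 21.4) and 15.3% (11.7 to 19.6) of these cells. Young PBS was highest at this depth but not after thinning to 1000 UMIs, where the libraries lay close together. Unthinned, at median depths of 26578, 24878 and 29088 UMIs, the shares were 72.9%, 71.4% and 69.4%. Myf5 was found in 21.8%, 16.9% and 22.5% of thinned cells and Myod1 in 17.4%, 14.5% and 18.2%, with intervals that overlap between libraries.

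Myog was found in 10.2% (7.19 to 13.9), 7.83% (4.24 to 13.0) and 9.25% (6.41 to 12.8) of thinned MuSC/myoblast-like cells and in 92.5%, 100% and 90.7% of thinned myocyte-like cells. In MuSC/myoblast-like cells the share was lowest in old PBS, with intervals that overlap in all 3 libraries. Mymx was found in 5.52% (3.36 to 8.49), 1.81% (0.374 to 5.19) and 2.60% (1.2 to 4.88). The background, read in macrophage/monocyte-like cells at median depths of 14189, 14921 and 14520.5 UMIs before thinning, was 1.25%, 0.63% and 0.868% for Myog and between 0.0341% and 0.0486% for Pax7. For Mymx it was 0.388%, 0.324% and 0.269%.

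**Figure D5:**
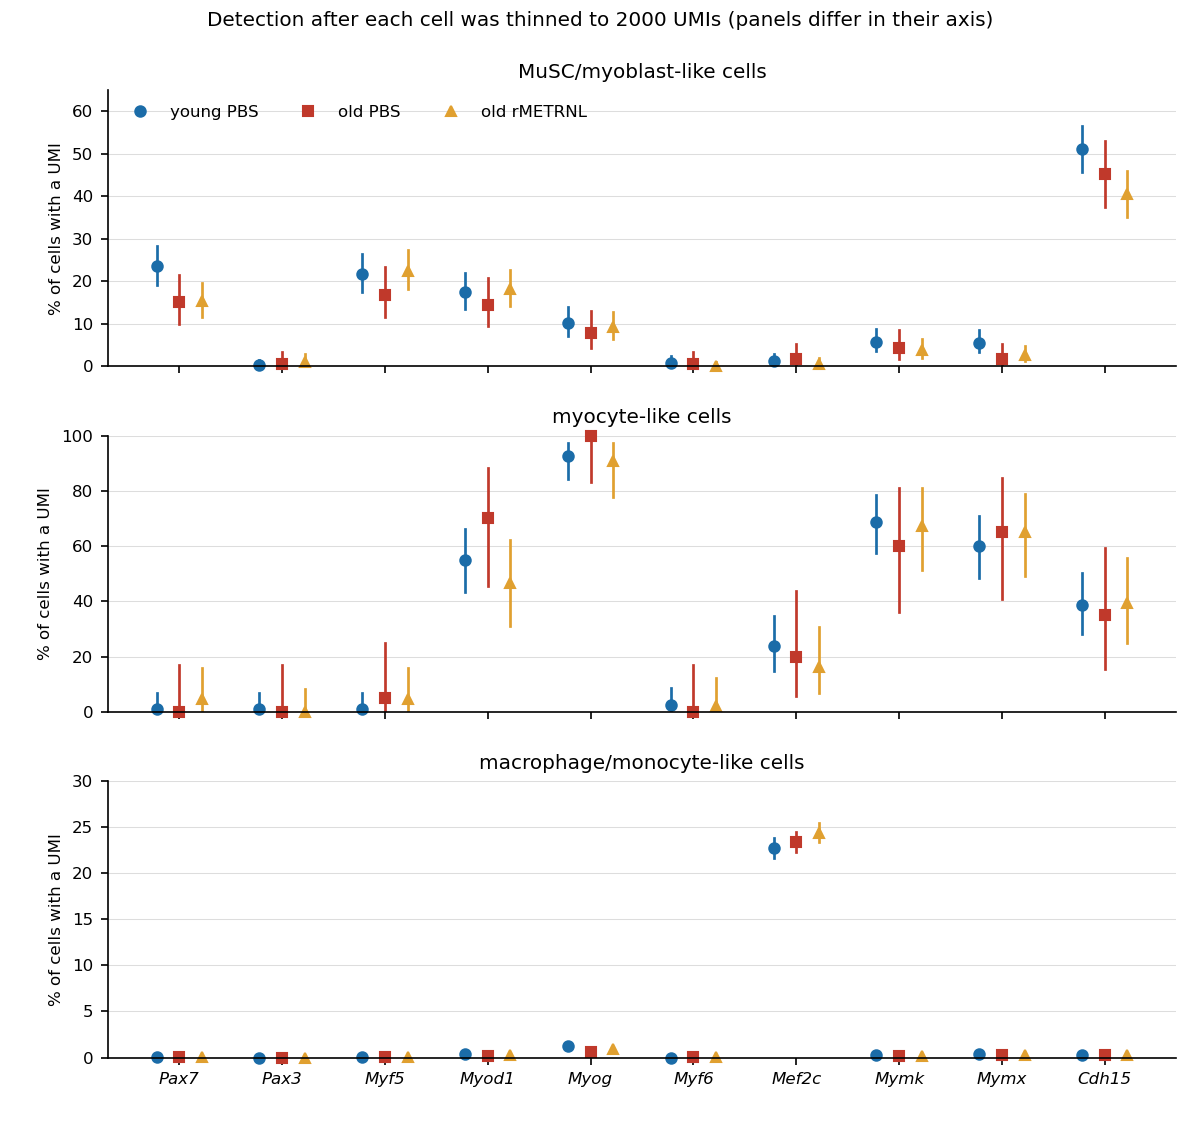
Share of cells with at least 1 UMI of each member after thinning to 2000 UMIs (y, percent), by class and library, with 95% binomial intervals. Pax7 and Myf5 were found mostly in MuSC/myoblast-like cells, Myog in 90.7% to 100% of myocyte-like cells, and macrophage/monocyte-like cells give the background except for Mef2c, which 22.7% to 24.4% of them held; the panels differ in their axes.

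Cells were also gated on raw UMIs without any clustering. A gate of at least 1 UMI of Pax7, Myf5 or Cdh15 (M-cadherin, an adhesion protein of satellite cells) took 696, 432 and 583 cells, or 6.76%, 4.34% and 5.14% of kept cells. Of these, 58.3%, 41.9% and 64.8% were in the mononuclear muscle lineage, and 24.4%, 32.4% and 18.7% were macrophage/monocyte-like. A gate on Myog took 795, 497 and 622 cells (7.72%, 5.0% and 5.48%), of which 24.7%, 12.3% and 23.2% were in the mononuclear lineage and 55.2%, 61.0% and 55.3% were macrophage/monocyte-like. Most cells with a Myog UMI were therefore of another class in every library, and they were 6.97%, 4.97% and 5.01% of all macrophage/monocyte-like cells. Asking for 2 UMIs left 413, 186 and 382 cells in the Pax7, Myf5 and Cdh15 gate, 93.0%, 91.4% and 92.9% of them in the mononuclear lineage, and 207, 92 and 169 in the Myog gate, 77.3%, 54.3% and 66.3% of them in that lineage. Under all of these gates old PBS held the fewest cells.

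Co-detection showed how Pax7, Myod1, Myog, Mymk and Mymx combined in single cells of the mononuclear lineage. After thinning, Mymx cells also held Myog in 59 of 67 young PBS (88.1%), 14 of 16 old PBS (87.5%) and 33 of 37 old rMETRNL cells (89.2%). Mymk cells held Myog in 81.3%, 78.9% and 78.6%. Fusion gene UMIs were therefore mostly found in Myog cells in each library. The reverse was less complete, since Myog cells held Mymk in 56.0%, 45.5% and 46.5% and Mymx in 54.1%, 42.4% and 46.5%. Pax7 cells held Myog in 6 of 82, 2 of 25 and 2 of 55. Pax7 cells held Myod1 in 5 of 82 young PBS (6.10%, 2.01 to 13.7), 3 of 25 old PBS (12.0%, 2.55 to 31.2) and 13 of 55 old rMETRNL cells (23.6%, 13.2 to 37.0). The young PBS and old rMETRNL intervals for Pax7 with Myod1 overlap narrowly, and the unthinned shares were 46.0%, 34.9% and 50.6%.

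Likeness between genes was read over 14 sums of sub-cluster by library with at least 30 cells, which share libraries and depth, as Pearson correlation of log2(CPM + 1). Fibre-like droplets of every library were included, and the 22 old PBS myocyte-like cells were not. A correlation can therefore rest on the difference between fibre-like droplets and mononuclear cells. Among members, Pax7 was most like Myf5 (0.99), and Myog was like Mymk (0.97) and Mymx (0.97). Myod1 was closest to Mymk (0.90) and Myog (0.85), and Myf6 to Mef2c (0.86). Pax7 and Mef2c ran opposite (-0.83). Of 9259 other genes, the most like Pax7 were Notch3 (0.99), Upp1, Spsb1, Chic1 and F2r. Ptgds (0.98), Aif1l and Dclk1 were among the 5 most like Myod1, the most like Myog were Arpp21 (0.97), Svbp, Rtf2, Msi2 and Dyrk2, and the most like Mymk were Arpp21 (0.97), Mef2a, Svbp, Rb1 and Gatm.

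Other genes of the pathway were read from 5 lists of 82 genes in all. In MuSC/myoblast-like cells with age, 4 of 11 tested bHLH partners and inhibitors were lower and 0 higher, with a median log2 ratio of -0.22 beside 0.0034 over all genes. Those were Snai1, a repressor that competes for E-boxes, at a ratio of 0.383 (0.267 to 0.537), and Id3 at 0.605, Id2 at 0.650 and Id1 at 0.650, inhibitors that bind the partners of bHLH factors. Of 15 stem and progenitor genes, 3 were higher and 0 lower (median 0.19): Cd34 at 2.23 (1.504 to 3.31), Spry1, an inhibitor of growth factor signalling, at 1.54 and Chodl at 1.52. Of 18 differentiation targets 4 were higher and 0 lower (median 0.090), led by the fibre genes Ckm at 37.3, Acta1 at 6.79 and Myl1 at 2.31, genes of mature muscle that moved with the fibre markers above. Of 14 cofactors 1 was lower, the muscle methyltransferase Smyd1 at 0.660, and of 14 adhesion and fusion partners 0 were past the fold.

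With treatment in MuSC/myoblast-like cells, 6 of 18 differentiation targets were lower and 0 higher (median -0.39 beside -0.0047 over all genes). Ckm was at 0.0875, Acta1 at 0.2 and Myl4 at 0.287, all genes that were higher in old PBS than in young PBS. Of 15 stem and progenitor genes 2 were lower (median -0.21), Chodl at 0.515 (0.396 to 0.672) and the receptor Notch3 at 0.632 (0.562 to 0.710). Among 12 bHLH partners and inhibitors Snai1 was higher at 1.57 (1.10 to 2.28) and Msc, a bHLH repressor of the Myod1 class, lower at 0.663 (0.579 to 0.761), with a median of 0.21. Of 14 cofactors and of 14 adhesion and fusion partners 0 were past the fold, with medians of 0.037 and -0.035.

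In myocyte-like cells with age, 1 of 10 stem and progenitor genes was past the fold, the syndecan Sdc4 at 1.86 (1.53 to 2.25), as were Carm1 at 0.514 among 12 cofactors and Tmem182 at 0.652 among 12 adhesion and fusion partners. The list medians ran from -0.10 to 0.045, beside -0.0092 over all genes. Of 10 bHLH partners and 18 differentiation targets 0 were past it. With treatment, 2 of 18 differentiation targets were lower, the embryonic cardiac actin Actc1 at 0.502 (0.469 to 0.537) and the cell cycle inhibitor Cdkn1c at 0.575 (0.545 to 0.607), with a median of -0.18 beside 0.022 over all genes. Of 11 cofactors 2 were higher and 2 lower, the higher ones being Carm1 at 2.29 (1.14 to 5.08) and Srf at 1.72, and the lower ones including Six4, a homeobox factor, at 0.657 (0.476 to 0.91). Tcf3, a bHLH partner, was at 0.619, Jam3 at 0.529 and Tmem182 at 1.59, and 0 of 9 stem and progenitor genes were past the fold. These old PBS values rest on 22 cells, with 10 UMIs of Carm1 and 19 of Srf.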

How the data were processed

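Cells from 3 pooled suspensions of injured TA muscle were sequenced on the 10x Genomics platform. The raw UMI counts per gene and barcode were deposited by the authors as matrices made with Cell Ranger, which the file header gives as version 5.0.0 and the submitters' processing notes as 5.0.0 and 3.1.0, on mm10. The annotation release is not given in the sources used here.

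A barcode was kept from 500 detected genes upwards when its mitochondrial share lay below 10%. The automatic threshold of the doublet caller marked 0 barcodes, so the highest scores were removed at 0.8% per 1000 barcodes (1110, 1112 and 1433 barcodes in young PBS, old PBS and old rMETRNL). Cells were clustered with scanpy 1.11.5 and leidenalg 0.10.2 at resolution 0.8 on 2000 variable genes and 30 components, without the members. Clusters were named from 15 marker lists, and muscle clusters were split again at resolution 0.5. The naming and splitting rules were set after seeing the cluster tables, so names may differ from the study's. A cluster that held markers of another class, 45 cells, stayed unnamed.

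UMIs were summed per class and library. Intervals were exact Poisson for CPM, exact (Clopper-Pearson) binomial for shares and exact conditional for ratios, at the 95% level with scipy 1.17.1. A gene counted as past the fold at a ratio of at least 1.5 either way, an interval leaving out 1 and at least 50 UMIs. The floor for a count of 0 was 3 counts. Ratio code was tested on simulated data. The members and lists were chosen with earlier results of these data known. All members were named, with up to 3 genes past the fold for each list, class and comparison (Id1 and Six4 were added after their values were seen) and the 5 genes most like Pax7, Myod1, Myog and Mymk. Some genes that this rule picks are not reported here. The form of the MEF2 site was set after the Myog promoter was seen. In all, 17 alternatives were planned.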

Additional observations from a re-analysis of the deposited data

Results flagged for a closer look

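Myog, the factor that starts differentiation, lay on opposite sides of 1 in the 2 muscle classes when old rMETRNL was set over old PBS. The ratio was 1.41 in MuSC/myoblast-like cells and 0.723 in myocyte-like cells, each with a counting interval that leaves out 1. The difference between the classes was not tested.

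UMIs of every member were also present in barcodes that the comparisons of the report left out: those under the gene minimum, over the mitochondrial limit or called doublets. Keeping doublets or loosening the filter let part of them back in. They were 671 for Pax7, 38 for Pax3, 862 for Myf5, 1229 for Myod1, 3652 for Myog, 125 for Myf6, 9688 for Mef2c, 940 for Mymk and 870 for Mymx. As a share of all the UMIs of a gene they differed between the libraries. For Myog they were 14.3%, 6.11% and 15.6% in young PBS, old PBS and old rMETRNL, for Mymk 13.1%, 6.28% and 13.9%, for Mymx 13.4%, 5.78% and 17.3%, and for Pax3 34.1%, 8.33% and 27.6%, from 44, 24 and 76 UMIs. For Pax7 and Myf5 the share was instead highest in old PBS, at 23.1% and 24.03%, against 13.5% to 22.1% in the others.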

How the results depend on the processing

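With 1 library per group no library could be left out. No paired analysis was possible because each group has 1 library. The old PBS library sets the precision, with 175 MuSC/myoblast-like and 22 myocyte-like cells, and the stricter cell filter (at least 1000 genes, under 5% mitochondrial UMIs) left 41 and 2 of them.

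In MuSC/myoblast-like cells Mymx was lower with age in the 9 alternatives that could move a ratio (0.145 to 0.456) and higher with treatment (1.67 to 3.58), and the Myog ratio for age ran from 0.3 to 0.944. Members lower with age (2) became 4 with doublets kept or at resolution 1.6 and 1 as a mean of per-cell CPM. Members higher with treatment (1) became 2 with doublets kept, with the stricter filter, with members kept in clustering and at resolution 1.6. Members lower with treatment (1) became 0 with doublets kept, with the looser or stricter filter, with members kept in clustering and at resolution 0.4 or 1.6, and 2 with 20 UMIs or no minimum. Mef2c turned direction with treatment, at 1.47 with doublets kept, 1.43 with the looser filter and 1.64 at resolution 1.6. In myocyte-like cells, counts of 0 with age became 1 higher with the looser filter, the stricter filter or members kept, and 2 lower with the stricter filter. With treatment they became 2 higher with the stricter filter and 1 lower with doublets kept, with the stricter filter and at resolution 1.6. The cause of these moves was not tested.

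Detection in MuSC/myoblast-like cells depended on depth. In young PBS, old PBS and old rMETRNL it was 10.6%, 11.0% and 9.75% for Pax7 at 1000 UMIs, and 72.9%, 71.4% and 69.4% unthinned. For Myog it was 7.26%, 4.05% and 6.13% at 1000 UMIs, and 30.7%, 22.3% and 27.0% unthinned. The stricter filter gave 16.4%, 4.88% and 14.5% for Pax7 and 20%, 14.6% and 12.4% for Myog, and the looser filter 22.5%, 18.0% and 21.6% for Pax7. The Pax7, Myf5 and Cdh15 gate took 4.01%, 1.87% and 3.36% of cells at 2 UMIs and 4.13%, 2.89% and 3.36% with the stricter filter. The Myog gate took 2.01%, 0.925% and 1.49% at 2 UMIs and 6.78%, 4.72% and 5.0% with the stricter filter. That filter put the myocyte-like share at 17.6%, 4.65% and 11.0%. Over the 9 alternatives that could move a member ratio (a UMI minimum cannot), 176 ratios stayed within their counting interval, 54 moved out of it and 3 turned direction. A turn was counted only for a ratio past the fold in the main setting. Other ratios that crossed 1 were counted among the 176 or the 54. In MuSC/myoblast-like cells Myf5 with age, for example, ran from 0.774 to 1.33.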

Other observations

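A sub-cluster of 45 cells (11 in young PBS, 17 in old PBS, 17 in old rMETRNL) from the muscle clusters stayed unnamed. Its macrophage/monocyte markers stood at 22.3% of the level of that class, past the limit of 10%. The leucocyte genes Cd74 and Ptprc were among its leading genes. It held 1460 UMIs of Myog, at 722, 932 and 462 CPM, and 415 UMIs of Mymk and 295 of Mymx. Its median depth was 49852 and 58596 UMIs in young PBS and old rMETRNL, above the 41041 and 34705 of their myocyte-like cells, and 25734 UMIs in old PBS, below the 45411 of its myocyte-like cells.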
